A study of Mus musculus with 8 samples.

Results

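The genes of the cytosolic ribosomal proteins were examined as a reference class of promoters beside the lineage genes that C/EBPα is known for. They were taken by symbol from the protein-coding genes of mouse genome build mm10: symbols that start with Rpl or Rps and a digit, together with Rpsa, Rplp0, Rplp1, Rplp2 and Fau, without the Rps6k kinases and pseudogene symbols. The rule found 90 of 21883 protein-coding genes. Of these, 46 encode proteins of the large subunit and 32 proteins of the small subunit. The other 12 are mostly paralogues such as Rpl3l, Rpl10l and Rps27l, or carry a ribosomal symbol only, as does Rps19bp1, whose product binds RPS19. The rule left out Rack1, which encodes a further ribosomal protein. Symbols, and no measured value, chose the members, although the rule was set with earlier results of these data known.

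C/EBPα, a transcription factor that drives myeloid differentiation, was mapped by CUT&RUN, in which a nuclease tethered by an antibody cuts out the DNA beside a bound protein. The cells were bone marrow progenitors without lineage markers (Lin-), with high to intermediate KIT and with FLT3, sorted from mice that were wild type (WT) or carried a variant named DC or DE of the enhancer 165 kb from Zeb2. Each genotype had 2 anti-C/EBPα libraries, 1 from each of 2 batches, and replicate 1 is batch 1 throughout. The labels give neither the change behind the names DC and DE, nor the age of the mice, nor whether the libraries came from separate or pooled animals, so p-values measure the spread between these libraries, which may be technical. The 2 IgG libraries, from WT cells, were not analysed here. Peak lists record binding and not expression, so the sorted cell type could not be checked against the expression of its markers. Sequencing depth is unknown, since the files used here give no read totals. The lists held 50221 to 169943 peaks, the most in DC replicate 1, where 10% of called regions lay within 1 kb of a gene end, against 12.7% to 20.5% in the other libraries.

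Each cytosolic ribosome joins a small subunit, which decodes the messenger RNA, to a large subunit, which forms the peptide bond, and their proteins are made in matched amounts. Mammalian ribosomal protein genes are short, highly transcribed housekeeping genes with promoters in CpG islands, and their messengers begin with a run of pyrimidines (the TOP element) that places their translation under control of mTOR. In bone marrow, loss of 1 copy of genes such as Rps19, Rpl5 or Rpl11 is known from Diamond-Blackfan anaemia to impair red cell production, and RPS14 is linked to the anaemia of the 5q- syndrome.

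Promoters of 7 members are given first, because they show the kind of gene end at issue: strong sites (Rpl41, Rps19, Rplp2), a site that differed between batches (Rplp0), members with a pyrimidine run or a C/EBP match (Rps6, Rpl11) and a member with no called region (Rpl35a). Each runs from 200 bases before the RefSeq transcription start to 30 bases after it, 230 bases in all, 5′ to 3′ in the direction of transcription. Capitals mark matches, on either strand, to the C/EBP letters TTGCNNAA or the ETS letters CCGGAAG, and a run of 8 or more pyrimidines at the start.
Rpl41: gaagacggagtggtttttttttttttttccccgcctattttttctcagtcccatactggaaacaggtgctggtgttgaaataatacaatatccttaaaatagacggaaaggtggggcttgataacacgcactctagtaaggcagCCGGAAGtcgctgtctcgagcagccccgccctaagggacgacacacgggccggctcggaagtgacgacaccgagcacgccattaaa
Rps19: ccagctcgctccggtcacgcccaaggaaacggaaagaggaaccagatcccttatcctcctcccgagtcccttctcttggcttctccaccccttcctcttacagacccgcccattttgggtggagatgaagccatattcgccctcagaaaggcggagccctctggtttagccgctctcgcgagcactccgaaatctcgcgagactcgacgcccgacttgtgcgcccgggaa
Rplp2: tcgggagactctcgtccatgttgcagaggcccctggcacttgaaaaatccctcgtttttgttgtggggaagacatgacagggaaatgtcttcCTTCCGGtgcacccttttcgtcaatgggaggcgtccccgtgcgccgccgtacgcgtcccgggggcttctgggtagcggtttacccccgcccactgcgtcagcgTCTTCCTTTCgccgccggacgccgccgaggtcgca
Rplp0: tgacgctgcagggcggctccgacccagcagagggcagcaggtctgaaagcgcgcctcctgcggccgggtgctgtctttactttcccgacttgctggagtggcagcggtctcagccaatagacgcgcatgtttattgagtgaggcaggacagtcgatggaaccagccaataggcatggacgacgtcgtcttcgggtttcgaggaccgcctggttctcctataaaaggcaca
Rps6: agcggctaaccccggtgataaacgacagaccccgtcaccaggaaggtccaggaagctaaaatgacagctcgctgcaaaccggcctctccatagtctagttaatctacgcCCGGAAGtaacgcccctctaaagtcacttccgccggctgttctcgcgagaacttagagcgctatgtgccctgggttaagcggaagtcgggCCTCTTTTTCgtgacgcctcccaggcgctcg
Rpl11: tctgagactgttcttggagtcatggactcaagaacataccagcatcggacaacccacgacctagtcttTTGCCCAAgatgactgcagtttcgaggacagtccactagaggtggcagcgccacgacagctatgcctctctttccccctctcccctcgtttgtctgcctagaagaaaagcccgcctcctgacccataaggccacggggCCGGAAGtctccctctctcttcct
Rpl35a: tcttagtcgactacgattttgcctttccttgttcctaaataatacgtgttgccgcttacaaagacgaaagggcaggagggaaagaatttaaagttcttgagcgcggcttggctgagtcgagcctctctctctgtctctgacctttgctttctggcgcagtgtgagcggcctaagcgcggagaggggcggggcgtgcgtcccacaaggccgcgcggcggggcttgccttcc
In GRCm38.p6, the assembly of mm10, they lie as follows: Rpl41 at chr10:128549139-128549368, minus strand, Rps19 at chr7:24884392-24884621, plus strand, Rplp2 at chr7:141447451-141447680, plus strand, Rplp0 at chr5:115559267-115559496, plus strand, Rps6 at chr4:86857338-86857567, minus strand, Rpl11 at chr4:136053364-136053593, minus strand and Rpl35a at chr16:33056253-33056482, plus strand. The C/EBP letters appeared in the Rpl11 stretch alone, as TTGCCCAA from base -132. ETS letters appeared in Rpl41 (from base -56), Rplp2 (-108), Rps6 (-91) and Rpl11 (7 bases into the transcript). The pyrimidine run was TCTTCCTTTC in Rplp2 and CCTCTTTTTC in Rps6. The Rps19, Rplp0 and Rpl35a stretches held none of the 3.

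A C/EBPα region was called at the ends of most ribosomal protein genes. Peaks of the 6 lists that overlapped by 1 bp or more were joined into 259446 regions, of which 169 lay within 1 kb of an end of a member. In batch 1, a region was called for 60 members in WT (66.7%, where 41.3% of all protein-coding genes had a region), 81 in DC (90% beside 55.9%) and 65 in DE (72.2% beside 38.1%). In batch 2, a region was called for 74 members in WT (82.2% beside 45.1%), 72 in DC (80.0% beside 40.7%) and 74 in DE (82.2% beside 42.5%). In every library the share of members was above the share of all genes. The mean share was 74.4% ± 11 (SD, n = 2) in WT, 85.0% ± 7.07 in DC and 77.2% ± 7.07 in DE. Exact permutation tests between genotypes, two-sided, gave p = 0.667 for DC against WT, 1.00 for DE against WT and 0.667 for DC against DE, but 2 against 2 libraries allow no p below 0.333, so these tests could not have shown a difference of any size.

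Over the 6 libraries, 85 of 90 members (94.4%) had a region in at least 1, beside 65.8% of all genes, and 47 (52.2%) had the same region called in all 6, beside 27.9%. By subunit the latter were 24 of 46 large-subunit genes, 20 of 32 small-subunit genes and 3 of 12 paralogues and others. A further 16 members had their best region called in 5 libraries, 7 in 4 and 15 in 1 to 3. In 12 of the 16 the missing call was that of WT replicate 1, in 3 that of DE replicate 1 (Rpl5 and Rpl7 among them) and in 1 that of DE replicate 2 (Rpl36al). Without WT replicate 1, 59 members had a region in all remaining libraries. A missing call is no measure of absent binding, since the weakest region called in a library had a pileup of 4 to 7 fragments at the lowest local background and more where the background was higher.

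**Figure D1:**
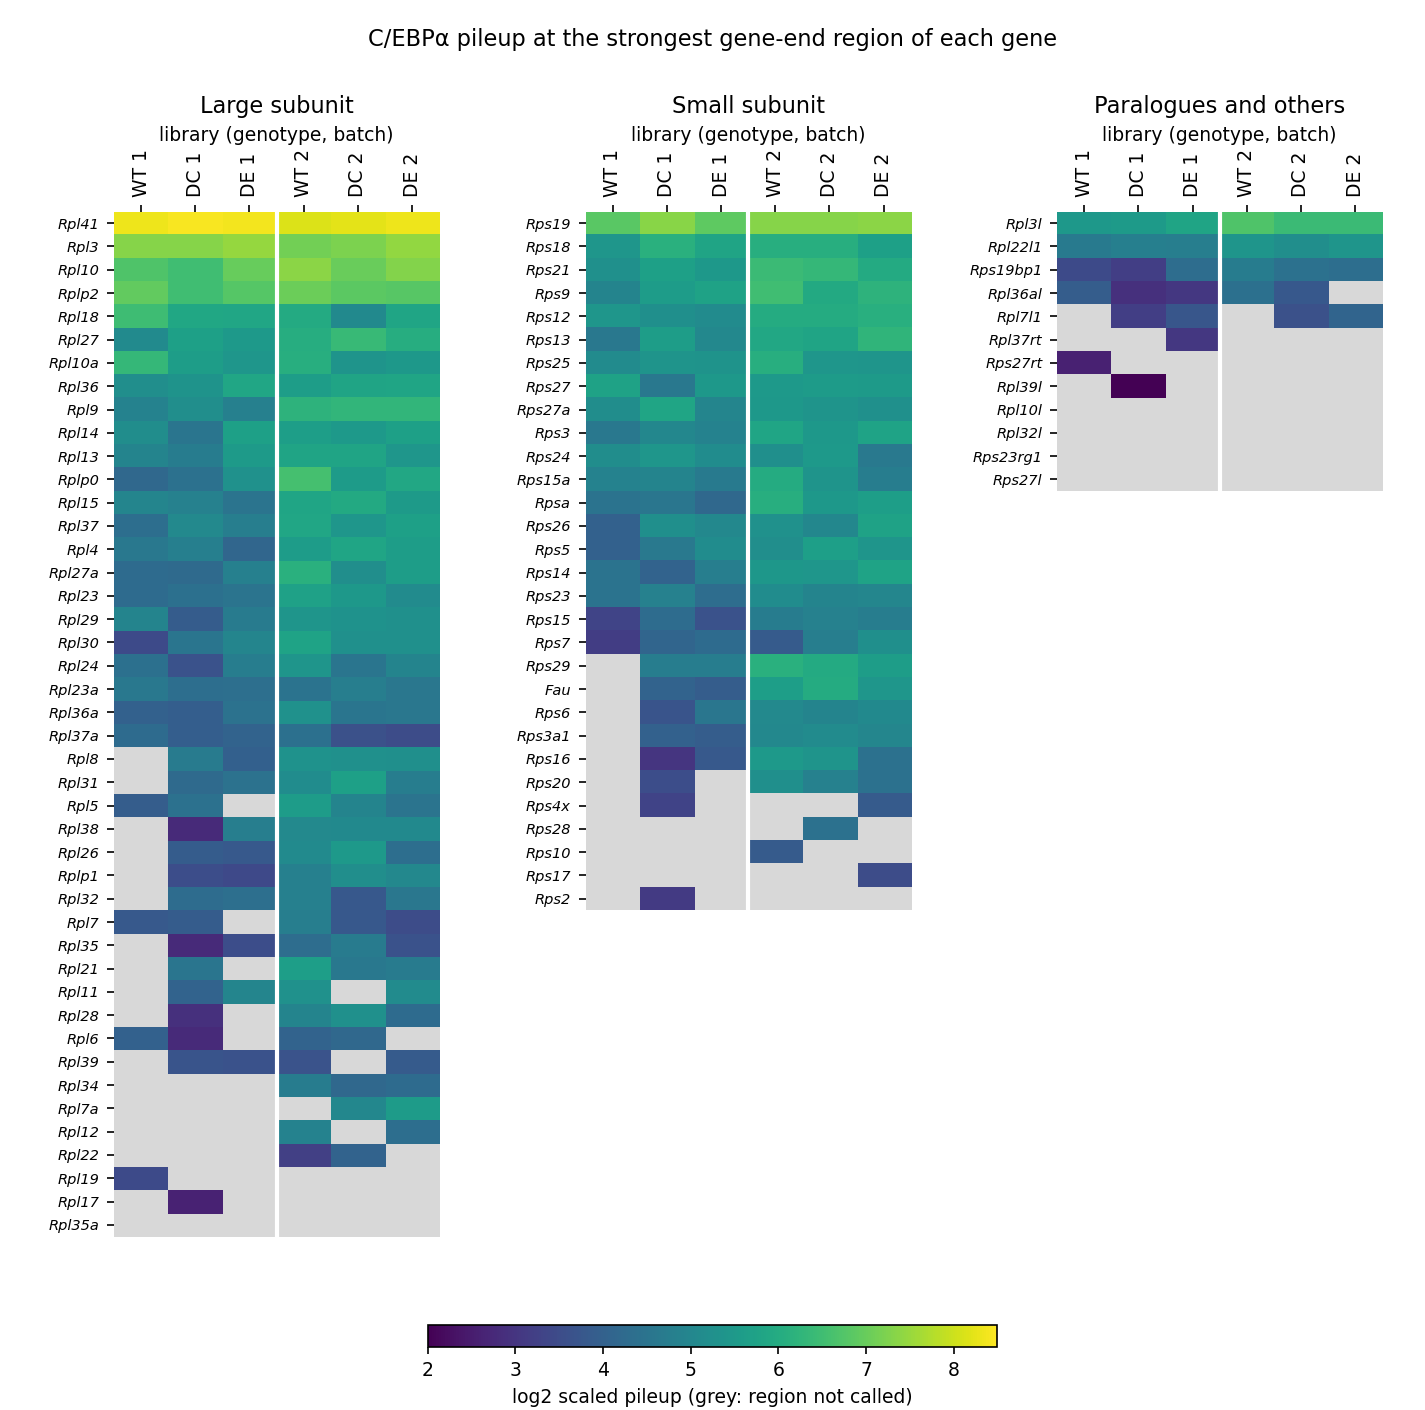
The heat map gives the scaled pileup (log2, colour) of the best gene-end region for 86 of the 90 genes (rows). Columns are the 6 libraries, batch 1 left of the white line and batch 2 right of it. The best region is the one within 1 kb of a gene end called in most libraries. Grey marks a library where that region was not called, although another region of the gene may have been. Rpl41, Rpl3 and Rps19 are brightest in their panels, and 4 of the 12 paralogues and others, with Rpl35a, are grey throughout, while the 4 genes not shown are subunit genes with a region.

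Among large-subunit genes Rpl41 was the strongest site. It encodes the shortest ribosomal protein, a basic peptide. Its pileup, the number of fragments over the summit, was 320 and 273 (WT, replicates 1 and 2), 560 and 197 (DC) and 399 and 284 (DE) at chr10:128549018-128549552, with the summit at -67 bp from the transcription start printed above. After scaling to the regions shared by all libraries, these became 323 and 287, 346 and 302, and 334 and 322, so the genotypes overlapped. Rpl3, whose protein lies near the peptidyl transferase centre, followed with scaled pileups of 161 and 139 (WT), 161 and 149 (DC) and 177 and 173 (DE). The DE values of Rpl3 were both above the WT and DC values, by a margin that did not pass the test below.

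Rpl10, needed for a late step of large-subunit maturation, stood at 105 and 165 (WT), 90.8 and 130 (DC) and 127 and 156 (DE). Each genotype was higher in batch 2. Rplp2, a protein of the stalk that recruits elongation factors, had 123 and 132 (WT), 90.2 and 117 (DC) and 110 and 113 (DE), with WT above both variants in both batches. Its region also lay within 1 kb of Pidd1, and its summit was at -400 bp from the Rplp2 start, so the site cannot be assigned to 1 of these genes. At the start of Rpl13a a region was called in 5 libraries, with scaled pileups of 82.0 in WT replicate 2, 34.0 and 76.7 (DC) and 36.8 and 84.9 (DE), and no call in WT replicate 1.

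The next large-subunit genes by mean log2 pileup were Rpl18, Rpl27 and Rpl10a. Rpl18 had scaled pileups of 89.8 and 63.0 (WT), 58.7 and 33.7 (DC) and 57.7 and 56.6 (DE). Both WT values of Rpl18 were above all values of DC and DE. Rpl10a had 80.7 and 67.2 (WT), 49.4 and 41.4 (DC) and 42.7 and 44.2 (DE), again with WT above and no overlap. Rpl27 had 34.3 and 66.2 (WT), 51.9 and 82.8 (DC) and 45.2 and 66.8 (DE), which overlapped. At the other end of the all-library members, Rpl37a, a zinc-finger protein of the large subunit, had 19.2 and 21.0 (WT), 15.4 and 12.3 (DC) and 16.7 and 11.3 (DE). Of the Diamond-Blackfan genes of this subunit, Rpl5 was called in 5 libraries (scaled pileups of 15.1 and 48.3 in WT, 21.6 and 30.7 in DC and 22.6 in DE replicate 2) and Rpl11 in 4 (38.9 in WT replicate 2, 16.7 in DC replicate 1, 31 and 35.1 in DE). RPL5 and RPL11 also bind the p53 regulator MDM2.

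Rps19 was the strongest small-subunit gene. Its protein takes part in maturation of the small-subunit RNA. Scaled pileups were 114 and 160 (WT), 163 and 159 (DC) and 118 and 166 (DE) at chr7:24883912-24884636, with the summit at -96 bp from the start. WT and DE were higher in batch 2 and DC was not, and the genotypes overlapped. Other well-bound small-subunit genes were Rps18, Rps21, Rps9, Rps12, Rps13 and Rps25, with scaled pileups between 24.2 (Rps13 in WT replicate 1) and 91.4 (Rps9 in WT replicate 2). The Rps18 and Rps25 regions also lay within 1 kb of Vps52 and Trappc4. Rpsa, which is also known as the laminin receptor, had 22.2 and 67.2 (WT), 23.5 and 44.5 (DC) and 18.4 and 49.8 (DE). Rps14 had 22.2 and 43.1 (WT), 16.7 and 42.9 (DC) and 27.6 and 54.4 (DE). For both genes every batch 2 value was above every batch 1 value.

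The lowest of the small-subunit genes called in all libraries were Rps7 (WT 9.08 and 14.7, DC 17.3 and 27.6, DE 19.2 and 37.4) and Rps15 (10.1 and 26.3, 19.8 and 29.1, 12.5 and 27.2). For Rps7 both variants were above WT within each batch. Rps6, whose phosphorylation by S6 kinase is the usual readout of mTOR signalling, was called in every library but WT replicate 1, with scaled pileups of 33.6 in WT replicate 2, 13.0 and 30.7 in DC and 23.4 and 34.0 in DE. Fau, made as a fusion of a ubiquitin-like domain with RPS30, was missing in the same library and had 50.4 in WT replicate 2, 16.7 and 64.4 in DC and 15.1 and 43.0 in DE. Its region also lay near Mrpl49. Where these genes were called in both batches, batch 2 was higher.

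Of the paralogues, Rpl3l, a muscle-restricted form of Rpl3, had a region in all libraries (WT 44.4 and 105, DC 46.9 and 85.9, DE 55.2 and 86.1). That region lay 3866 bp downstream of the Rpl3l start, within 1 kb of Msrb1, so it need not belong to Rpl3l. Rpl22l1 had 25.2 and 42.0 (WT), 27.8 and 36.8 (DC) and 27.6 and 41.9 (DE), and Rps19bp1 had 11.1 and 26.3, 9.26 and 21.5, and 20.1 and 20.4. Rpl39l, expressed in testis, had a single call, with a pileup of 6 in DC replicate 1. No library had a region within 1 kb of an end of Rpl10l, Rpl32l, Rps23rg1, Rps27l or Rpl35a. Rpl35a was the only subunit gene among these 5, and it is also a Diamond-Blackfan gene. In all, 19 of the 90 members had a best region that lay within 1 kb of another gene as well.

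Distance to a gene end missed some promoters, because a listed transcription start can lie well inside the annotated ends of a gene. Rps2, Rps27l and Rpl22 had a region called in all 6 libraries at a start listed 1864, 1462 and 1290 bp inside the gene. For Rpl22, a small RNA-binding protein of the large subunit with a role in T cell development, its scaled pileups were 43.4 and 91.4 (WT), 56.2 and 65.9 (DC) and 63.6 and 91.7 (DE). For Rps2 they were 22.2 and 34.7, 11.1 and 35.3, and 9.20 and 24.9, and for the p53-induced paralogue Rps27l 19.2 and 28.4, 17.9 and 21.5, and 15.9 and 27.2. Counting listed starts as well as gene ends, 50 members had a region in all libraries and 86 in at least 1. Rpl18 also had a region called in all 6 libraries at a start listed 2604 bp inside the gene. Scaled pileups there were 32.3 and 60.9 (WT), 43.2 and 47.5 (DC) and 22.6 and 48.7 (DE), which overlapped. Rpl18 was already counted through its upstream region.

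Most summits lay just upstream of the start of transcription. A RefSeq start was at hand for 70 of 90 members, and 65 of these had a region. The best region of a member is the one called in most libraries. In 54 of the 65 its summit was within 500 bp of the nearest listed start. In 47 of these 54 the summit was on the upstream side. The median was -65 bp, with quartiles at -96 and -20 bp. Of the 11 whose best region was farther away, Rpl4, Rpl13a, Rpl18, Rps9 and Rpl3l were called in all libraries. The Rpl4 region lay near Snapc5, 5880 bp downstream of the Rpl4 start.

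**Figure D2:**
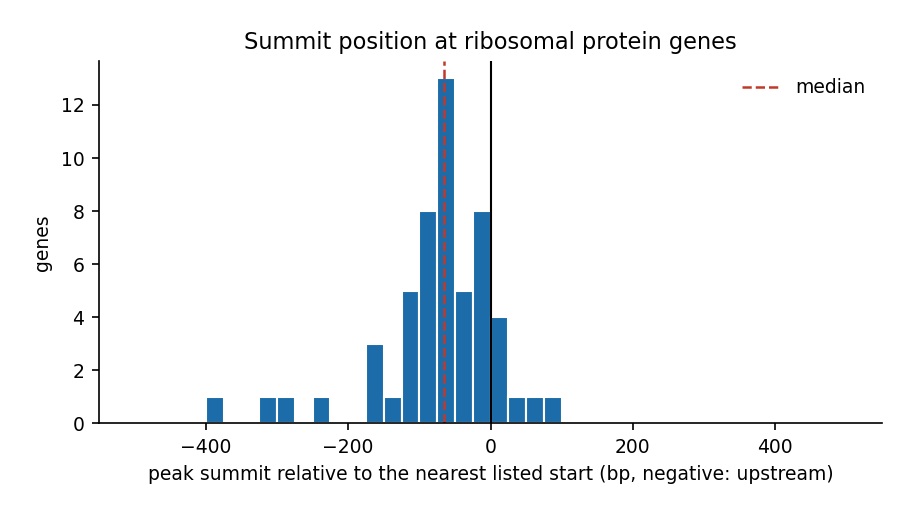
The histogram counts ribosomal protein genes (vertical axis) by the summit position of their best region, for the 54 genes within 500 bp. The horizontal axis is the position relative to the nearest listed transcription start (bp, negative upstream, bins of 25 bp). The dashed line is the median of -65 bp, and 47 genes lie upstream of 0.

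Promoter letters were counted in the 70 members with a RefSeq entry. In windows of 300 bases (250 before the start and 50 after), the C/EBP letters TTGCNNAA were found on either strand in 5 of 70 members (7.14%), beside 10.1% of all 17491 promoters. The 5 were Rpl10a, Rpl11, Rpl22, Rpl23 and Rpl32l, of which Rpl10a and Rpl23 had a region in all libraries at a gene end. The ETS letters CCGGAAG, read by factors such as GABP, were in 25 (35.7%), beside 11.9% of all promoters. A run of at least 8 pyrimidines at the start was in 24 (34.3%), beside 9.56%. The median run there was 5 bases long, beside 3 for all promoters. Shorter runs, and runs away from the listed start, were not counted. The share is thus not that of members with a TOP element. The GC box GGGCGG was in 58.6% beside 46.3%, CCAAT in 31.4% beside 39.2%, and the YY1 letters ATGGCGGC in 5.71% beside 3.20%. TATAAA was in 11.4% beside 13.3%, and the E-box CACGTG in 7.14% beside 7.91%. Median GC content was 57.5% beside 56.3%. A gene-end region in all libraries was found for 14 of 24 members with the pyrimidine run and 24 of 46 without it. It was found for 11 of 25 with the ETS letters and 27 of 45 without, and for 16 of 22 with CCAAT and 22 of 48 without. For the GC box the counts were 24 of 41 with and 14 of 29 without, with no test of these splits. These are matches of letters within a fixed window, all on both strands except the run. The matches of CCAAT, TTGCNNAA and GGGCGG can overlap those of other motifs. The region counted in the splits was the best at either gene end, not one at the promoter. For Rpl4, Rpl13a, Rpl18, Rps9 and Rpl3l its summit lay more than 500 bp from the nearest listed start. Rps2, Rps27l and Rpl22 were counted as lacking it, although a region at their start was called in all 6 libraries.

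Ribosomal protein gene ends had lower pileups than the ends of neutrophil and monocyte genes. The neutrophil and monocyte list (31 genes, among them Elane, Mpo, S100a8 and Csf3r) had a gene-end region in 27 to 29 genes per library. The median scaled pileup of its highest regions was 64.6 and 57.8 (WT), 82.8 and 64.4 (DC) and 69.4 and 66.8 (DE). Among occupied ribosomal protein genes it was 24.2 and 45.2 (WT), 21.6 and 42.2 (DC) and 27.6 and 39.6 (DE), below the neutrophil and monocyte median in 6 of 6 libraries. The mean log2 ratio of the medians was -1.07 ± 0.59 (SD, n = 6 libraries), and it lay between -1.94 in DC replicate 1 and -0.36 in WT replicate 2. In WT, DC and DE of batch 1 the neutrophil and monocyte median was 2.67, 3.83 and 2.51 times the ribosomal one. In batch 2 it was 1.28, 1.53 and 1.69 times, so the SD includes a difference between batches. Over all occupied genes the medians were 24.2 and 36.8, 16.1 and 36.8, and 28.4 and 30.6, so the ribosomal protein genes were near the typical occupied gene end. By fold over local background, which the authors give at each summit, the same log2 ratio was -1.50 ± 0.26 and 6 of 6 libraries were again lower. Over all regions within 1 kb, and not the highest per gene, it was -0.68 ± 0.60 with 5 of 6 libraries lower and 0.04 in WT replicate 2. The ratio was a comparison of occupied genes only, and it has no test here. The 13 dendritic genes had 8 to 12 occupied ends, with medians of 18.5 to 33.0, and were below the ribosomal protein genes in 5 of 6 libraries. The 10 mast and basophil genes had 2 to 7 occupied ends, with medians of 9.06 to 22.7, and were below them in 6 of 6.

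Other genes of the translation machinery were counted in the same way. Of 78 mitochondrial ribosomal protein genes, 44 to 64 had a region per library, with medians of 16.4 to 34.7. Of 56 initiation factor genes, 38 to 44 had one, with medians of 21.6 to 48.3, and of 20 ribosome biogenesis genes 14 to 20, with medians of 15.8 to 36.2. The 20 stem and progenitor genes, among them Kit, Flt3 and Runx1, had 12 to 17 occupied ends, with medians of 18.5 to 35.7. Of 15 non-haematopoietic genes, 0 to 3 had a region. The place of the strongest region within 10 kb of a gene was compared next. Among ribosomal protein genes with such a region, it lay at the gene end for 52.9% and 72.6% (WT), 55.6% and 69.0% (DC) and 59.5% and 70.2% (DE). For all genes the shares were 29.7% and 40.2%, 29.5% and 37.5%, and 33.3% and 36.8%, and for stem and progenitor genes 10% to 20%. Initiation factor genes had 56.9% to 73.5%, ribosome biogenesis genes 60.0% to 73.7% and mitochondrial ribosomal protein genes 42.9% to 59.1%. The ribosomal protein genes were thus above all genes, the stem and progenitor list and the mitochondrial ribosomal protein genes in each library. They were below both initiation factor and biogenesis genes in WT and DC of batch 1 and above both in DC of batch 2. In the other libraries they lay between these 2 lists, as a description with no test. The search covered the gene body and 10 kb on either side, and gene length was not matched between the lists. A longer gene thus offered more places away from its ends. The median number of regions searched per gene was 2 to 4 for ribosomal protein genes. It was 2 to 5 for all genes and 5.5 to 15 for stem and progenitor genes.

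**Figure D3:**
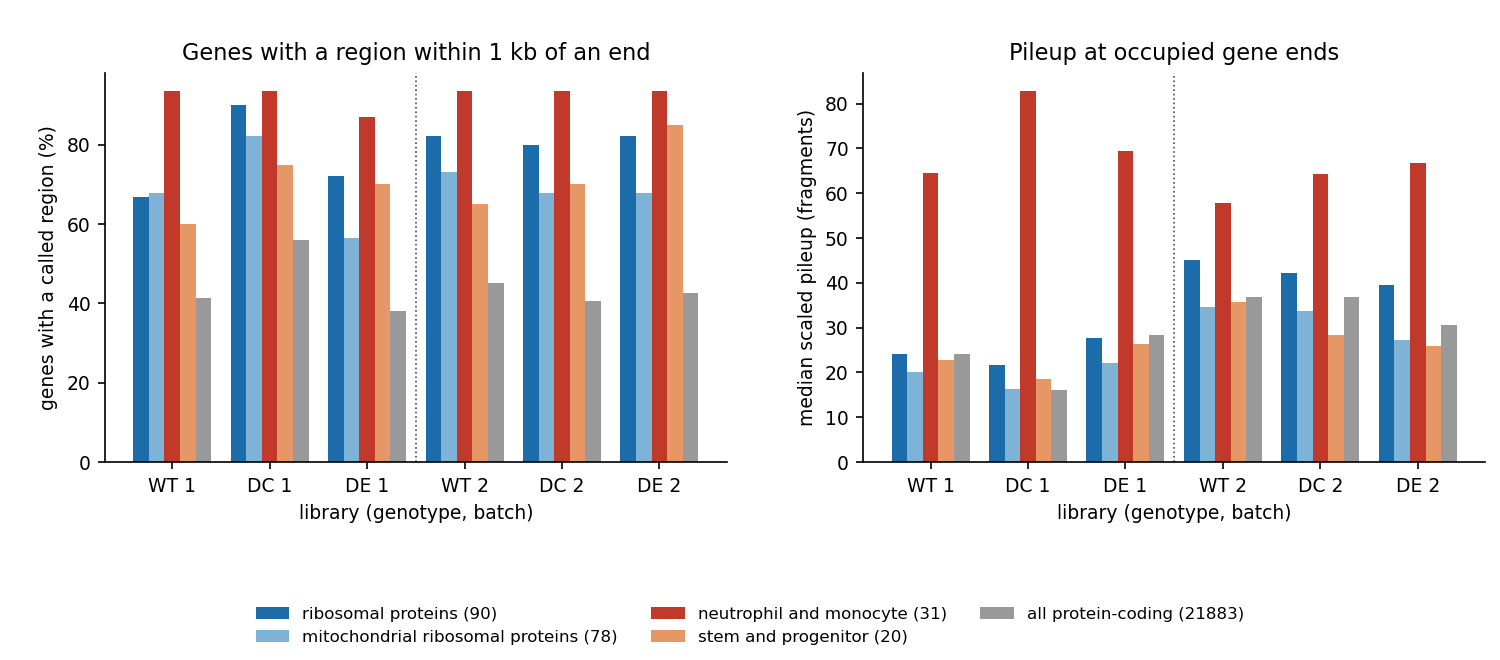
Bars give, per library (horizontal axis, batch 1 left of the dotted line), the percentage of genes of 5 sets with a called region within 1 kb of an end (left) and the median scaled pileup in fragments at the highest such region of occupied genes (right). Ribosomal protein genes exceed all protein-coding genes on the left in each library, and neutrophil and monocyte genes are the highest on the right, where the ribosomal bars stand at 21.6 to 27.6 in batch 1 and 39.6 to 45.2 in batch 2.

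The enhancer variants were then compared with WT at the 23476 regions called in all 6 libraries, by limma on log2 scaled pileup with Benjamini-Hochberg adjustment over all of them. Of the regions at ribosomal protein gene ends 51 could be tested, at 47 members. The test left out members that lacked a call anywhere, so these 47 are the better-bound ones. No member passed the test between genotypes. A region that did not pass is not shown to be unchanged, since each genotype had only 2 libraries. For DC against WT, 0 of 51 regions passed an adjusted p of 0.05 (limma), as for all regions (0%), and 0 of the 51 had an unadjusted p under 0.05. Their median log2 difference was -0.05, with 24 of 51 above 0, beside -0.02 for all regions. For DE against WT, 0 of 51 passed (all regions 0%), with 2 at an unadjusted p under 0.05 (Rpl10a at -0.76 and Rps7 at 1.21) and a median of 0.01. For DC against DE, 0 of 51 passed (all regions 0%), with 0 at an unadjusted p under 0.05 and a median of -0.09. The comparisons with WT share the WT libraries. Of all 23476 regions, 1878, 1144 and 554 had an unadjusted p under 0.05 (limma) for DC against WT, DE against WT and DC against DE. Of the 5920 gene-end regions it was 222, 176 and 70.

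With batch as a term, which pairs the libraries of a batch, 738 regions (3.14%) rose and 280 (1.19%) fell in DC against WT. Among the 5920 gene-end regions 1.11% rose and 0.659% fell, and 0 of the 51 ribosomal protein regions passed in either direction. By these shares, the 51 would hold few called regions in any case. An unadjusted p under 0.05 (limma) was found for 3965 of all 23476 regions, 584 gene-end regions and 4 of the 51. The 4 with an unadjusted p under 0.05 were Rpl18 (log2 difference -0.76, 95% interval -1.33 to -0.18, adjusted p = 0.131), Rpl10a (-0.70, -1.29 to -0.12, 0.181), Rpl24 (-0.82, -1.57 to -0.08, 0.236) and Rps7 (0.92, 0.13 to 1.71, 0.201). For DE against WT, 269 regions (1.15%) rose and 65 (0.277%) fell, with 0 of the 51 among them. Among gene-end regions 0.389% rose and 0.236% fell. Here 2809 of all regions, 509 gene-end regions and 4 of the 51 had an unadjusted p under 0.05 (limma). The 4 nearest were Rps7 (1.21, 0.42 to 2.01, adjusted p = 0.112), Rpl10a (-0.76, -1.35 to -0.18, 0.221), Rps15a (-0.73, -1.41 to -0.05, 0.367) and Rps26 (0.73, 0.04 to 1.43, 0.380). For DC against DE, 1 region (0.00426%) rose and 2 (0.00852%) fell, none of them ribosomal. Rpl10a lay below WT and Rps7 above it in both variants in both batches, against the same WT libraries, and neither passed. The Rpl18 region in this list was the one upstream of its listed start.

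The interval of a strong site was narrower. For Rpl41 the log2 difference was 0.09 ± 0.18 (SE, n = 2 per genotype) in DC and 0.11 ± 0.18 in DE with the batch term. For Rps19 it was 0.26 ± 0.22 and 0.05 ± 0.22, for Rpl3 0.05 ± 0.21 and 0.22 ± 0.21, and for Rpl10 -0.27 ± 0.23 and 0.10 ± 0.23. Each difference was smaller than its standard error or only slightly larger.

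Many of these regions differed between the batches. In this comparison, which was added after the values were seen, batch 2 was set against batch 1 with genotype in the fit. Of the 51 ribosomal protein regions 24 were higher in batch 2 and 0 lower (limma, adjusted p under 0.05), with a median log2 difference of 0.73. Among all regions 9.70% were higher and 6.97% lower, with a median of -0.03. Among the 5920 gene-end regions 28.4% were higher and 2.72% lower, with a median of 0.38, so part of the contrast with all regions was shared by gene ends in general. At the level of genes, the best regions of 22 of the 47 members passed, namely 11 of 24 large-subunit, 10 of 20 small-subunit and 1 of 3 other members. In 31 of the 51 regions (60.8%) every batch 2 library was above every batch 1 library, beside 37.7% of gene-end regions and 14.7% of all regions, and the reverse held in 1.

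The members with the smallest adjusted p were Rpl9 (chr5:65391169-65391600), Rplp0 (chr5:115559256-115559797) and Rpsa (chr9:120127315-120127883). Rpl9 had scaled pileups of 29.3, 37.1 and 28.4 in WT, DC and DE of batch 1 and of 73.6, 78.2 and 77.0 in batch 2 (log2 difference 1.28 ± 0.25, SE, n = 3 per batch, limma adjusted p = 8.96e-05). The batches did not overlap, and the spread among genotypes within a batch was small beside the step. Its region is also within 1 kb of Lias. Rplp0, a stalk protein often used as a reference gene in quantitative PCR, had 18.2, 21.6 and 39.3 in batch 1 and 96.7, 47.5 and 60.0 in batch 2 (1.39 ± 0.27, adjusted p = 0.000134). Rpsa, with the values above, differed by 1.32 ± 0.28 (adjusted p = 0.000368).

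Others with a small adjusted p were Rpl4 (1.17), Rpl27a (1.19), Rpl3l (0.92), Rps14 (1.10), Rpl15 (0.99), Rpl30 (1.12) and Rpl23 (1.06), with adjusted p-values from 0.00153 to 0.00614. Rpl30 had the lowest value of these in WT replicate 1, 11.1, and 22.9 and 31 in DC and DE of batch 1, against 54.6, 38.3 and 38.5 in batch 2. The strongest sites did not pass: Rpl41 differed by -0.14 ± 0.15 (adjusted p = 0.556), Rpl3 by -0.12 ± 0.17 (0.690), Rplp2 by 0.17 ± 0.19 (0.585), Rps19 by 0.32 ± 0.18 (0.231) and Rpl10 by 0.49 ± 0.19 (0.0561). Among the 8 distinct regions with the highest mean pileup 2 passed (median 0.24), and among the other 38 best regions 19 (median 0.77). That difference between strong and weak sites was not tested.

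**Figure D4:**
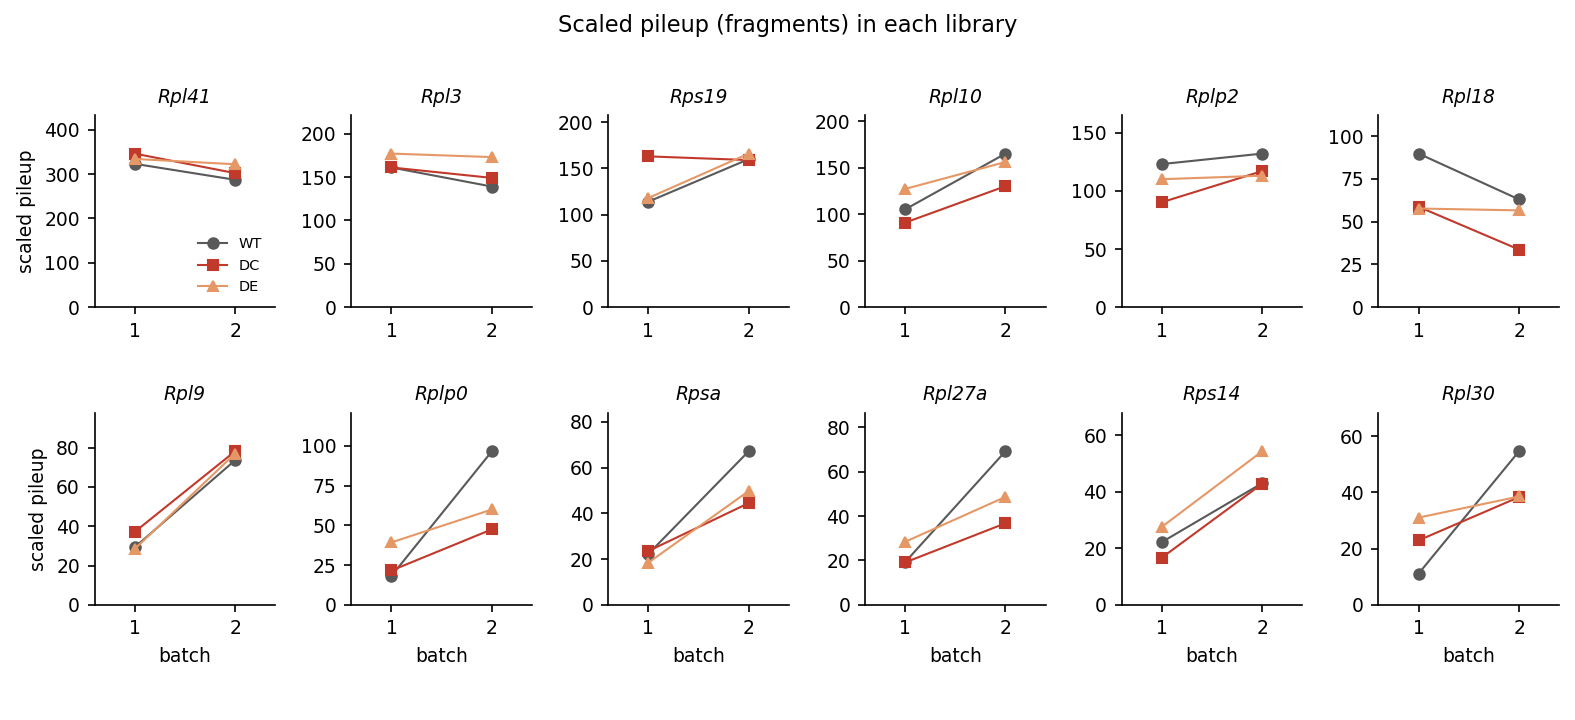
Each panel plots the scaled pileup (vertical axis, fragments, from 0) of 1 gene in batch 1 and batch 2 (horizontal axis), with a line per genotype (circles WT, squares DC, triangles DE). The upper row holds 6 strong sites that did not pass between batches, and the lower row 6 genes that passed between batches, such as Rpl9, which went from 28.4 to 37.1 in batch 1 to 73.6 to 78.2 in batch 2.

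The step was present within each genotype. The median log2 difference over the 51 regions was 0.88 in WT (45 of 51 higher in batch 2), 0.57 in DC (41 of 51) and 0.49 in DE (43 of 51). Over all gene-end regions it was 0.52, 0.36 and 0.21, and over the 31 regions at neutrophil and monocyte genes -0.09, -0.18 and 0.11. Of those 31, 3 were higher and 2 lower. Mitochondrial ribosomal protein regions had 12 of 37 higher and 0 lower, initiation factor regions 19 of 39 and 0, and ribosome biogenesis regions 6 of 12 and 0. In multiples of the lowest background of its library, the local background at the 51 regions was also higher in batch 2. The median multiple was 1.41, 1.89 and 1.54 in WT, DC and DE of batch 1 and 7.61, 7.92 and 8 in batch 2. Over all regions it was 1.16 to 1.27 in batch 1 and 1.91 to 2.14 in batch 2. The lowest background itself was 1.33, 1.11 and 1.53 in batch 1 and 0.902, 0.368 and 0.408 in batch 2. The multiples thus have a different unit in each library and are not on the scale of the pileups. With the local background subtracted from each pileup, 19 of the 51 regions were higher and 0 lower, and the median was 0.67. What the batches differed in besides is not given in the labels, and its part was not tested.

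**Figure D5:**
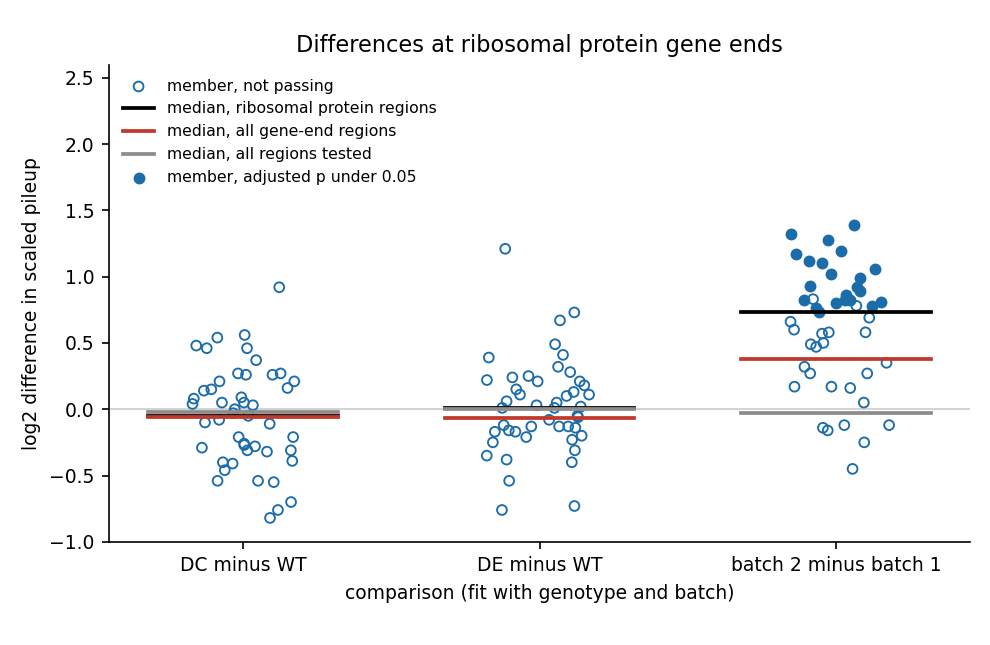
Points give the log2 difference in scaled pileup (vertical axis) at the best region of the 47 members called in all libraries, for DC minus WT, DE minus WT and batch 2 minus batch 1 in the fit with genotype and batch, filled where the adjusted p was under 0.05. Lines are medians over the 51 ribosomal protein regions, all gene-end regions and all regions. The ribosomal median is -0.05 and 0.01 between genotypes and 0.73 between batches, with the gene-end median at 0.38.

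The batch count rested on single libraries more than its direction did. Leaving out 1 library at a time gave 8 to 24 higher regions and 0 lower, with the fewest (8) without WT replicate 1 or WT replicate 2 and 13 or 14 without a DC library, while the median stayed between 0.53 and 0.79. Rpl9, Rpsa and Rpl4 passed in all 6 of these runs. Rplp0, Rpl27a, Rpl3l and Rpl30 did not pass without a WT library, and Rps14 and Rpl15 did not without a DC library. Rpl23 passed in 2 of 6. Without genotype in the fit, 12 were higher.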

How the data were processed

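The tools, per the submitters' processing notes, were MACS2 2.2.9.1, Bowtie2, HOMER, Trimmomatic and SAMtools, with build mm10; the role of the IgG libraries in peak calling is not given in the sources used here. The deposited peak lists, 1 per library, hold for each peak the authors' fold enrichment over local background at the summit (a ratio), −log10 p-value, −log10 q-value, a score (10 times the −log10 q) and the summit offset. The deposited merged region list has no measurement. The smallest −log10 q was 1.00 to 1.03, near the q of 0.1 in the list names.

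The pileup k and local background were recovered from fold, (k + 1)/(background + 1), and Poisson p-value. A whole k was found for 99.99% of peaks in each list, at a tolerance of 5% of a step. Regions joined peaks overlapping by 1 bp or more. Gene positions and transcription starts came from RefSeq (GRCm38.p6), with promoter sequences for 70 members. A member's best region was the one within 1 kb of a gene end called in most libraries, then with the highest mean pileup. Log2 pileups were centred so that the 23476 regions present in all 6 lists had a median difference of 0 between libraries. They were tested there with limma 3.58.1 in R 4.3.3 (trended variance, adjustment by Benjamini-Hochberg at 0.05), without and with batch as a term. The labels give the batch, so replicate numbers pair libraries. Batch deviations correlated across regions with r of 0.55 (WT and DC), 0.41 (WT and DE) and 0.38 (DC and DE). Python 3.11.15 was used for the rest. The recovery and the fit were tested on simulated data, where the fit missed many of the smaller changes.

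Alternatives were other windows, q of 0.01 or less, other scalings, 4 libraries and leaving out each library. Named genes were the 8 highest of each subunit, the 4 lowest called in all libraries, those with no region, up to 12 passing a test, 8 well-known members and 6 paralogues (Rps4l is not in the gene table); a few members are counted but not reported here by name, and others were named after their values were seen. Members and lists were chosen with earlier results of these data known.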

Additional observations from a re-analysis of the deposited data

Results flagged for a closer look

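The median log2 difference over the 51 ribosomal protein regions had opposite signs in the batches for both variants, and the difference between the batches was not tested. For DC minus WT it was 0.10 in batch 1 (29 of 51 regions above 0) and -0.19 in batch 2 (15 of 51), where all gene-end regions had 0.01 and -0.14. For DE minus WT it was 0.21 in batch 1 (32 of 51) and -0.15 in batch 2 (19 of 51), where gene-end regions had 0.06 and -0.22. Both share the WT library of the batch.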

How the results depend on the processing

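Depth is unknown, so counts of called genes move with the sensitivity of each list, and only well-bound members could be tested. The count of 47 members called in all libraries was 38 (of 70 members) to 65 under the other windows and thresholds and 47 to 59 leaving out each library, and the 85 called in any library were 83 to 90, or 65 of 70 members by transcription start. By limma without the batch term 0 regions changed for DC against WT, DE against WT and DC against DE, with 1878, 1144 and 554 at an unadjusted p under 0.05. The fit with the replicate block gave 1018 for DC against WT, 334 for DE against WT and 3 for DC against DE. Together with the block, counts for DC against WT were 679 with floor scaling (pileup divided by the lowest background of the library), 1065 with upper-quartile scaling, 999 at a q of 0.01 or less, 1104 with 4 libraries and 949 with background subtracted. For DE against WT they were 8, 364, 349, 233 and 293, and for DC against DE 15 with upper-quartile scaling, 10 at the stricter q, 52 with 4 libraries and 6 with background subtracted. Leaving out each library gave 180 to 1244, 93 to 253 and 1 to 33 with the block, and 0 to 4, 0 and 0 without it. No ribosomal protein region passed in any of these.

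The median log2 difference over ribosomal protein regions ran from -0.51 to 0.38 (DC against WT), -0.42 to 0.43 (DE against WT) and -0.35 to 0.18 (DC against DE) when libraries were left out without the block, which unbalances the batches, and from -0.25 to 0.11, -0.14 to 0.18 and -0.14 to 0.05 with it. Floor scaling moved it to 0.80, 0.57 and 0.22, beside 0.84, 0.55 and 0.30 over all regions. For DC against DE, where batches 1 and 2 alone gave -0.04 and -0.05, it was -0.12 with upper-quartile scaling and 0.00 with 4 libraries. For batch 2 against batch 1 it was 1.48 with floor scaling, where all regions had 0.72, and 0.49 in DE alone. The 3912 regions that changed between batches were 1266 to 4298 without each library. They were 1305 with the DE and WT libraries, 1480 with DC and DE and 1759 without the genotype term, and the 24 ribosomal protein regions 13, 14 and 12. Leaving out a library gave 8 to 24. The cause was not tested.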
